A study of Mus musculus with 2 samples.

Results

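The 9 genes described here, Csk, Pag1, Ptpn6, Ptpn22, Cbl, Cblb, Ubash3a, Sla and Sla2, encode proteins that limit signalling from the T cell receptor (TCR). They were chosen by name and found by mouse Entrez ID among the 24532 gene IDs of the gene tables, and all 9 had at least 1 TPM (a level per length, scaled to the same sum in each library). RNA was sequenced from CD69+ double-positive (DP) thymocytes, the precursors that carry CD4 and CD8 and have gained CD69 after a TCR signal. The mice were C57BL/6 and 6 weeks old. One library was labelled KO, a conditional knockout with floxed NSRP1 alleles and CD4Cre, whose recombinase is driven by Cd4 regulatory sequence and so acts from the DP stage. The other was labelled wild type (WT) and carried the same floxed alleles with no Cre stated. The protein of Nsrp1, NSrp70, is known as a regulator of splicing.

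The brakes on the TCR act at successive steps. The kinase Lck starts the signal and is switched off by Csk, which phosphorylates its inhibitory tyrosine; Pag1 is the membrane adaptor that brings Csk to its substrates. The phosphatases Ptpn6 (SHP-1) and Ptpn22 (PEP) remove activating phosphates from Lck, ZAP-70 and their targets. The ubiquitin ligases Cbl and Cblb mark activated receptors and kinases for degradation, Ubash3a (STS-2) binds Cbl, and the adaptors Sla (SLAP) and Sla2 (SLAP-2) bring Cbl to the receptor. In DP thymocytes Cbl and Sla are known for keeping the amount of TCR on the surface low.

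There was 1 library per genotype, so no difference below has a replicate check and no test was made. Each 95% interval comes from estimated read pairs and covers counting error only. Read depth summed over exons came to 5076 megabases in the library labelled KO and 4199 megabases in that labelled WT. Nsrp1 itself had 29.6 TPM (27.9 to 31.5) in the library labelled KO, against 29.7 TPM (27.7 to 31.9) in the library labelled WT. Its 7 exons had depth ratios (labelled KO over labelled WT) between 0.827 and 1.08, and no exon's interval lay wholly below 1. The level of Nsrp1 RNA therefore does not bear out the KO label. Which exon was floxed is not given, and exon 1 had only 3.79 and 3.56 read pairs, so the label could not be checked. Every direction below is between the 2 libraries as labelled. Cd4, Cd8a and Cd69 were high in both: the library labelled KO had 663, 1151 and 522 TPM, and that labelled WT had 725, 1138 and 430 TPM. RNA of both sexes was present in unequal amounts, with Xist at 76.3 TPM in the library labelled KO and 202 TPM in the library labelled WT, and Ddx3y at 71.2 and 31.1 TPM in the same order, so the sex of the mice and the genotype cannot be told apart.

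Cbl was the member that differed most, and it was lower in the library labelled KO along its whole length. Cblb and Pag1 were lower as well, by less than Cbl over the whole gene. Outside their terminal exons they were lower by more than over the whole gene. Their log2 fold changes there were -0.61 and -0.85, against -0.91 for Cbl. The other 6 genes, Csk, Ptpn6, Ptpn22, Ubash3a, Sla and Sla2, had log2 fold changes between -0.17 and 0.10. In bulk RNA of this kind, fewer cells that express a gene and less RNA per cell cannot be told apart.

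Promoter sequences are shown for 2 pairs on which the RNA bears: Cbl and Cblb, the paralogs that were both lower, and the 2 annotated starts of Csk, of which 1 had almost no reads in its leading exon. Each runs 5' to 3' from 250 bases before the annotated start to 50 after it, from RefSeq on GRCm38.p6, and capitals mark the GC box letters GGGCGG or their reverse complement CCGCCC. They lie, in order, at chr9:44233997-44234296 (minus strand), chr16:52031299-52031598 (plus strand), chr9:57645604-57645903 (minus strand) and chr9:57653582-57653881 (minus strand).
Cbl promoter: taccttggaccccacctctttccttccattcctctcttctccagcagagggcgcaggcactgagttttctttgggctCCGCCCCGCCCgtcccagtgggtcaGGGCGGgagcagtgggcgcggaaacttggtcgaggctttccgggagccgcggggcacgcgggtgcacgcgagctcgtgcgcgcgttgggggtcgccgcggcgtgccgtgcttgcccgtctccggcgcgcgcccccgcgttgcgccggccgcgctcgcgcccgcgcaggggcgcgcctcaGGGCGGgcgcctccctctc
Cblb promoter: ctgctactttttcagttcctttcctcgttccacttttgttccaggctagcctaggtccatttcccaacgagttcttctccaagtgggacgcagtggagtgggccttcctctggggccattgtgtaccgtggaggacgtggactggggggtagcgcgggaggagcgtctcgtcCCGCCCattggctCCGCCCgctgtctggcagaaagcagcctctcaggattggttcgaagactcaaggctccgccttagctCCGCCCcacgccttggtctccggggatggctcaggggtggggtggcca
Csk promoter, downstream start: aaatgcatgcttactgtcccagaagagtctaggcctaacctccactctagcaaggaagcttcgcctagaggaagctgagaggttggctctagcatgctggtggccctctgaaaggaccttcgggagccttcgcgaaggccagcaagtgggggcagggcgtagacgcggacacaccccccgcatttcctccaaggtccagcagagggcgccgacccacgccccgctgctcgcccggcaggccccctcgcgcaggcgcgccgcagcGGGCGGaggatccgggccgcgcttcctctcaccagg
Csk promoter, upstream start: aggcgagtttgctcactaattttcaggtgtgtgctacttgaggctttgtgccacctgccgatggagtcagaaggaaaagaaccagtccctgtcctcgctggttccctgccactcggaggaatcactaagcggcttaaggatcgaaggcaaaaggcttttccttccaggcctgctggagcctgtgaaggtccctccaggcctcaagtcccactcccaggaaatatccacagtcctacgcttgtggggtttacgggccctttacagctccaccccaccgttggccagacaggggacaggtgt
The Cbl window held 43 CpG dinucleotides and was 74.0% G and C, and 97.4% of the 32851 mouse promoter windows in the same table held fewer CpGs. The Cblb window held 17 CpGs at 61.3% G and C. GC box letters occurred 4 times in the Cbl window, counting an overlapping pair, and 3 times in the Cblb window. Over all promoter windows 35.7% held them at least once, as did 4 of the 9 windows listed for these genes. These windows are not 1 per gene. Ptpn22 and Csk have 2 each, Pag1 and Sla have none, and that of Ptpn6 lies at the start of its minor form. The downstream Csk start, the one used in these cells, held 24 CpGs and 1 GC box, against 9 CpGs and no GC box at the upstream start.

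The levels spanned a wide range. Ptpn6 and Csk led in both libraries and Cblb was lowest in both. The order by TPM in the library labelled KO was Ptpn6, Csk, Sla, Sla2, Ptpn22, Cbl, Ubash3a, Pag1 and Cblb, and only the intervals of Sla2 and Ptpn22 overlapped among neighbours. In that labelled WT it was Csk, Ptpn6, Sla, Cbl, Sla2, Ptpn22, Ubash3a, Pag1 and Cblb, where only the intervals of Csk and Ptpn6 overlapped. Cbl thus held place 6 in the library labelled KO and place 4 in the library labelled WT. The summed level of the 9 genes was 1696 TPM in the library labelled KO and 1829 TPM in the library labelled WT, and without Cbl it was 1605 and 1663 TPM in the same order.

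**Figure D1:**
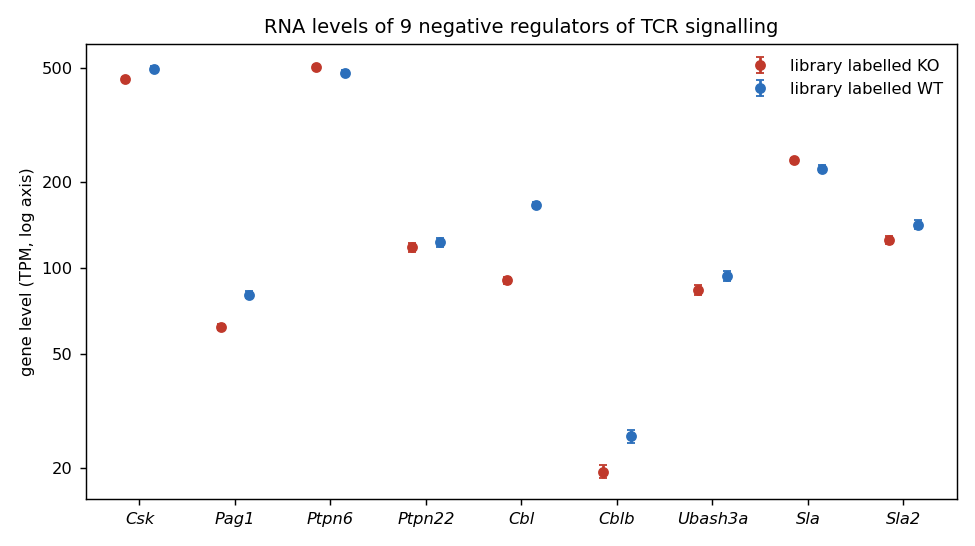
Gene level in TPM (log axis) of each of the 9 genes in the library labelled KO (red, left) and the library labelled WT (blue, right), 1 library each, with bars for the 95% Poisson interval of counting error. Cbl shows the widest gap, at 90.7 TPM in the library labelled KO and 165 TPM in the library labelled WT.

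Among all genes the group was not set apart by a count. None of the 9 reached a log2 fold change of 1 in size, a rule that 2.03% of the 12029 genes with at least 1 TPM met (0.657% higher and 1.37% lower). Cbl alone was past 0.5 in size, as were 9.78% of all genes (3.37% higher and 6.42% lower). Among the 6594 genes at or above the level of the lowest member, 3.38% were lower by 0.5. The log2 fold change was below 0 for 7 of the 9 and for 61.5% of all genes (59.3% of those 6594), whose median was -0.07, while the median of the 9 was -0.17. Fold changes of genes are on the scale of log2(TPM + 1), library labelled KO over library labelled WT, which slightly understates the difference of the lowest gene, Cblb.

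**Figure D2:**
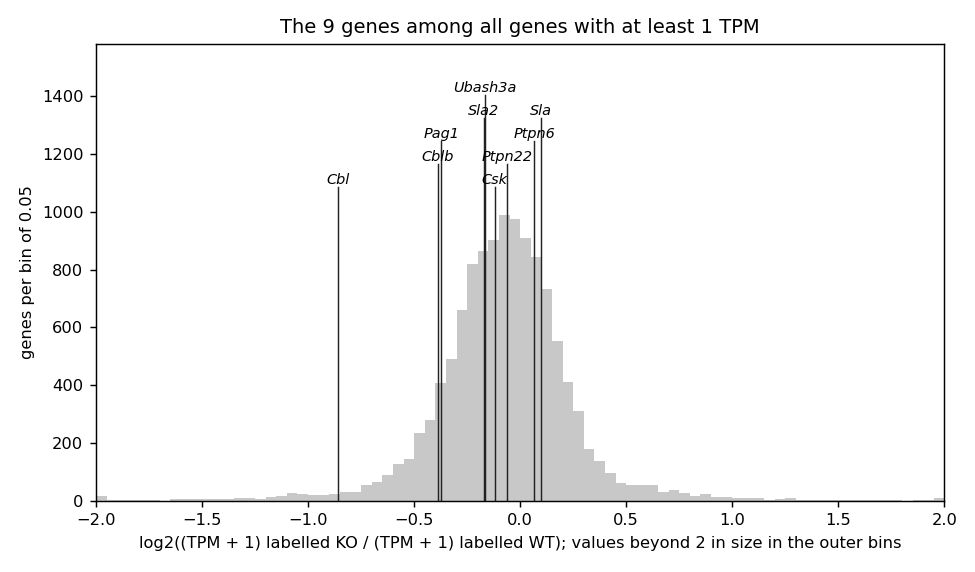
Distribution of the log2 fold change over 12029 genes, in bins of 0.05 on the horizontal axis with the number of genes on the vertical axis, and the 9 genes as labelled lines. Cbl lies in the lower tail at -0.86. Cblb and Pag1 lie at -0.39 and -0.37, where 11.3% and 12.5% of all genes are lower. The other 6 lie nearer the median of all genes.

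Cbl (Entrez 12402, chromosome 9, 44149262 to 44234046 in mm10, minus strand, a single annotated transcript) encodes the ubiquitin ligase c-Cbl. It had 90.7 TPM (88.2 to 93.2) in the library labelled KO, against 165 TPM (162 to 169) in the library labelled WT. The intervals do not overlap, and in the library labelled KO the level was lower by a factor of 1.82 (log2 fold change -0.86, ratio interval 0.529 to 0.568). Only 1.85% of all genes had a lower log2 fold change, and 0.682% of those 6594 genes. These values rested on 5139 read pairs in the library labelled KO and 7275 in the library labelled WT.

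The lower Cbl level ran through every exon. Across its 16 exons the depth ratio (labelled KO over labelled WT) lay between 0.464 in exon 2 and 0.576 in exon 10, with a median of 0.542, and each exon's interval lay below 1. Of 3160 genes with at least 10 exons of 20 read pairs or more, 1.58% were lower in this way in every such exon and 0.0633% were higher. Exon depths are given here in TPM-equivalents, the mean read depth scaled by the factor that turns transcript depth into TPM in that library. Exon 2, which is wholly coding, had 80.3 TPM-equivalents in the library labelled KO and 173 in the library labelled WT. Exon 11, the longest wholly coding one at 378 bases, had 118 in the library labelled KO and 212 in the library labelled WT. The terminal exon of 2476 bases, mostly 3' untranslated, had 96.6 in the library labelled KO and 171 in the library labelled WT, a ratio of 0.567 (0.539 to 0.596). The coding exons and the untranslated end of Cbl therefore differed by nearly the same factor.

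**Figure D3:**
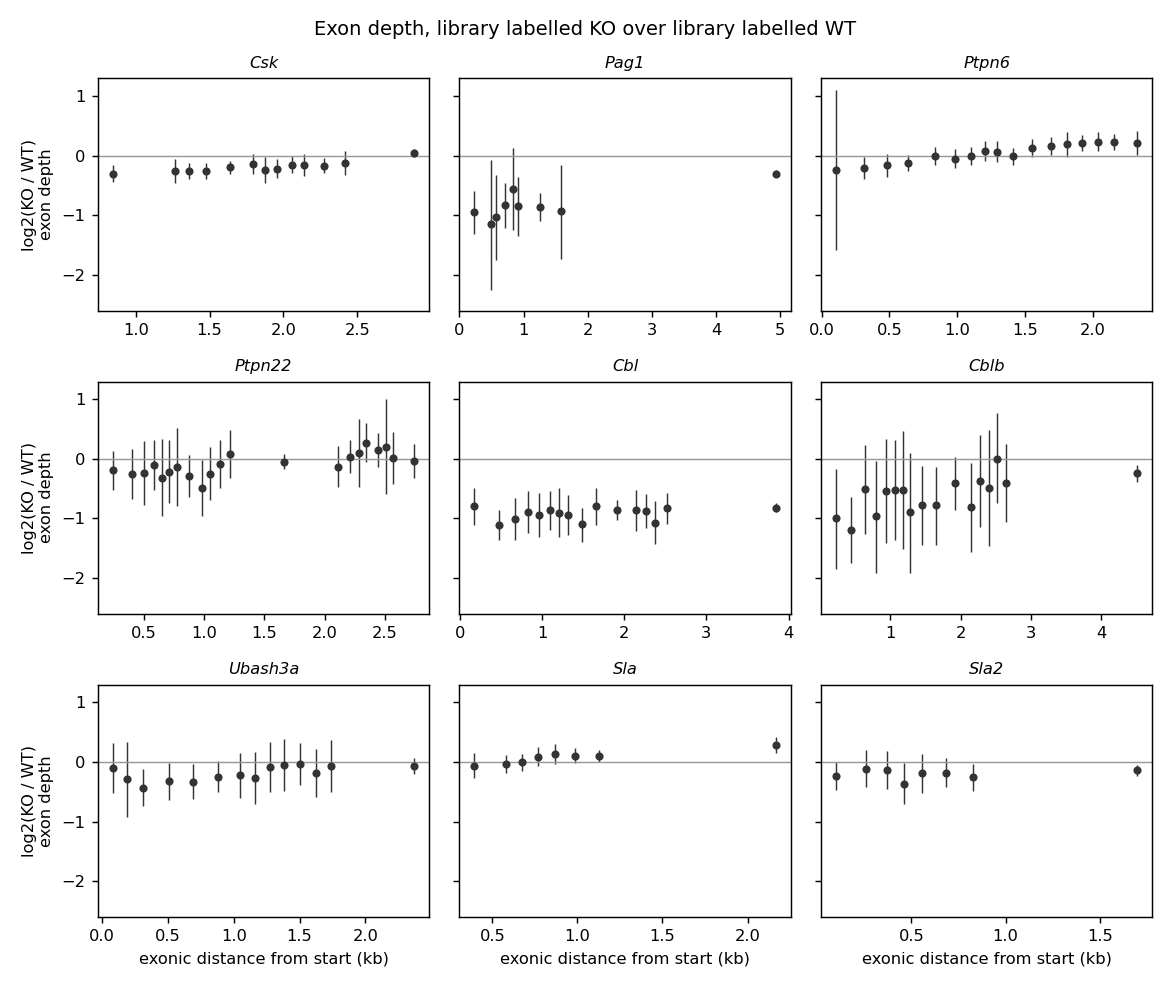
Log2 of the exon depth ratio (labelled KO over labelled WT) for each exon with at least 10 read pairs in both libraries, plotted by the exonic distance of its centre from the annotated start in kilobases, 1 panel per gene, with 95% counting intervals. The 16 exons of Cbl lie in a flat band between ratios of 0.464 and 0.576, while the points of Ptpn6 climb towards the 3' end and the last exon of Pag1 lies above its other exons.

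Cblb (Entrez 208650, chromosome 16, 52031549 to 52208046, plus strand), the paralog best known for restraining mature T cells, was the least abundant member. It had 19.5 TPM (18.5 to 20.5) in the library labelled KO, against 25.8 TPM (24.5 to 27.2) in the library labelled WT, a log2 fold change of -0.39. Its exons did not share 1 ratio: the median of the leading 3 was 0.439 and that of the last 3 was 0.845. Outside the terminal exon, Cblb had 17.1 TPM-equivalents in the library labelled KO and 26.7 in the library labelled WT, a ratio of 0.640 (0.569 to 0.721). The terminal exon of 3614 bases had 21.3 and 25.2 in the same order (ratio 0.845, 0.766 to 0.932). Cbl was 4.65 times as abundant as Cblb in the library labelled KO and 6.41 times in the library labelled WT. The summed level of both ligases was 110 TPM in the library labelled KO and 191 TPM in the library labelled WT.

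Ubash3a (Entrez 328795, chromosome 17, 31208066 to 31242403, plus strand), the Cbl-binding member of the STS pair, had 83.7 TPM (80.6 to 86.9) in the library labelled KO, against 94.0 TPM (90.3 to 97.9) in the library labelled WT (log2 fold change -0.17). All 14 exons had a ratio below 1, from 0.742 in exon 3 to 0.978 in exon 11, but only 3 of their intervals lay wholly below 1. Its paralog Ubash3b (STS-1), the more active phosphatase of the pair, had 5.70 TPM in the library labelled KO and 7.0 TPM in the library labelled WT. Ubash3a was thus 14.7 times as abundant in the library labelled KO and 13.4 times in the library labelled WT.

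Csk (Entrez 12988, chromosome 9, 57626646 to 57653631, minus strand) was among the most abundant of the 9. It had 456 TPM (449 to 464) in the library labelled KO, against 496 TPM (487 to 505) in the library labelled WT, a log2 fold change of -0.12, close to the median of all genes. Of its 2 annotated transcripts, NM_007783 starts at exon 3 and NM_001304761 at exon 1. Exons 1 and 2, both untranslated, had no reads in the library labelled KO and 1.16 read pairs in exon 2 of the library labelled WT. Exon 3, the leading exon of NM_007783, had 801 read pairs in the library labelled KO and 765 in the library labelled WT. NM_007783 accordingly held 99.1% of Csk TPM in the library labelled KO and 98.6% in the library labelled WT. From exon 3 on, the ratio was 0.813 in exon 3 and 1.03 in the terminal exon 16; exon 4, an untranslated exon of NM_001304761 alone, had 8.08 read pairs in the library labelled KO and 16.7 in the library labelled WT.

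Pag1 (Entrez 94212, chromosome 3, 9687482 to 9833679, minus strand), the adaptor that anchors Csk, had 62.1 TPM (60.5 to 63.8) in the library labelled KO, against 80.7 TPM (78.6 to 82.8) in the library labelled WT. The log2 fold change was -0.37, but the exons did not share 1 ratio. The terminal exon, at 6648 of 8253 exonic bases, had 68.4 TPM-equivalents in the library labelled KO and 84.1 in the library labelled WT (ratio 0.813, 0.782 to 0.846). All other exons together had 36.0 in the library labelled KO and 65.9 in the library labelled WT (ratio 0.547, 0.494 to 0.606). In these upstream exons Pag1 was therefore lower by about as much as Cbl, whose ratio there was 0.529 (0.503 to 0.557). Exon 7, which holds 587 of the coding bases, had 40.5 TPM-equivalents in the library labelled KO and 73.4 in the library labelled WT. Csk was 7.34 times as abundant as Pag1 in the library labelled KO and 6.15 times in the library labelled WT.

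The Pag1 transcripts NM_001195031 and NM_053182 differ by the untranslated exon 2 of 59 bases, which NM_053182 skips. The deposited TPM gave NM_053182 a share of 16.5% in the library labelled KO and 27.4% in the library labelled WT. Exon 2 did not show the same direction: its depth was 55.2% of that of exon 3 in the library labelled KO and 59.5% in the library labelled WT, on 12.7 and 21.7 read pairs. Pag1 was the only one of the 5 members with 2 annotated transcripts to differ in share by 10 percentage points, as did 27.7% of 3032 genes with several transcripts and at least 10 TPM in both libraries. None differed by 25 points, as did 6.63% of those genes.

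**Figure D4:**
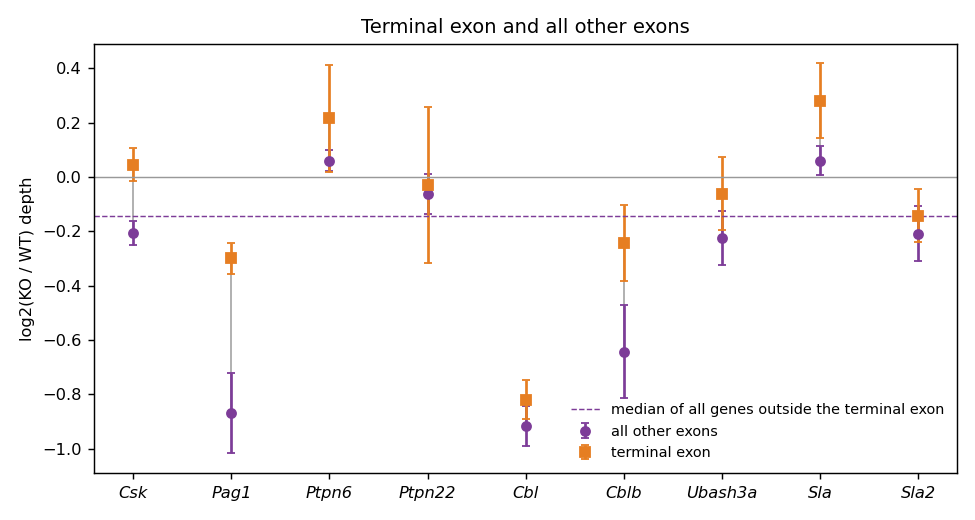
Log2 ratio of depth, library labelled KO over library labelled WT, in the terminal exon (orange squares) and in all other exons (purple circles) of each gene, with 95% counting intervals and a dashed line at the median of -0.14 that all genes had outside the terminal exon. In each of the 9 genes the terminal exon lies above the other exons, with the widest gap in Pag1 and then Cblb.

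This rise towards the 3' end was not particular to these genes. The exons of each gene were put in a 5' or a 3' part by whether their centre lay before or after the middle of its exonic bases, and the log2 ratio was higher in the 3' part in 83.4% of 8813 genes, with a median gap of 0.20. The gap was above 0 in all 9 members; in Cbl, Cblb, Pag1, Sla and Sla2 the 3' part is the terminal exon. The terminal exon alone had a higher ratio than the others in 81.3% of 9279 genes. The gap between the 3' and the 5' part was smallest in Sla2, at 0.067, and in Cbl, at 0.098, and largest in Cblb, at 0.40, and Pag1, at 0.57. A share of 83.1% of genes had a smaller gap than Cblb and 94.1% had a smaller gap than Pag1. Whether RNA quality or library making has a part in these gaps was not tested. Outside the terminal exon 3 of the 9, Cbl, Pag1 and Cblb, had a log2 fold change of -0.5 or below, as had 10.7% of 9879 genes. None was higher by 0.5 there, as were 2.09%, and none was lower by 1, as were 0.496%.

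Ptpn6 (Entrez 15170, chromosome 6, 124720707 to 124738709, minus strand) encodes SHP-1, the phosphatase of blood cells that binds inhibitory receptors through its SH2 domains. It had 503 TPM (494 to 512) in the library labelled KO, against 480 TPM (470 to 490) in the library labelled WT, a log2 fold change of 0.067. The exon ratio was 0.871 (0.766 to 0.989) in exon 2, where the main form starts, and 1.18 (1.05 to 1.32) in exon 15. In the 5' part of the gene the ratio was 0.960 (0.921 to 1.00), and in the 3' part 1.12 (1.08 to 1.16). The 2 ratios thus lie on either side of 1, but the interval of the 5' part reaches 1. The log2 gap between the parts, 0.22, was near the median of 0.20 over all genes, and 54.6% of genes had a smaller gap. Its relative Ptpn11 (SHP-2), a phosphatase found in most tissues, had 61.4 TPM in the library labelled KO and 69.4 TPM in the library labelled WT.

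The 2 Ptpn6 forms have different leading exons and different coding starts, shown here as the leading 30 coding bases of each GENCODE M21 transcript (GRCm38, chromosome 6, minus strand), with the coding bases from the leading exon in capitals.
Ptpn6, form NM_013545: ATGGTGAGgtggtttcaccgggacctcagc
Ptpn6, form NM_001077705: ATGTTGTCCCGCGGgtggtttcaccgggac
The leading exon of NM_013545 had 517 read pairs in the library labelled KO and 461 in the library labelled WT. That of NM_001077705 had 11.5 and 10.6 read pairs in the same order. NM_013545 held 97.9% of Ptpn6 TPM in both libraries, so the form that starts at the nearer exon prevailed equally in each. The deposited table lists no overlapping gene, but GENCODE M21 places 195 exonic bases of Gm20531 on the opposite strand of Ptpn6, 8.02% of its exonic length.

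Ptpn22 (Entrez 19260, chromosome 3, 103859795 to 103912252, plus strand), the PEP phosphatase, had 118 TPM (114 to 122) in the library labelled KO, against 123 TPM (119 to 128) in the library labelled WT. The ratio interval of 0.913 to 1.01 includes equal levels. Its exons ran from 0.692 in exon 2, on 3.16 and 3.54 read pairs, to 1.23 in exon 1, on 2.82 and 1.78, with intervals that reach far on both sides of 1. Among the better covered exons, exon 11 had a ratio of 0.717 (0.517 to 0.993) and exon 19 a ratio of 1.2 (0.960 to 1.52). The non-coding form NR_104070, which starts at exon 1, held 3.17% of Ptpn22 TPM in the library labelled KO and 3.28% in the library labelled WT.

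Sla (Entrez 20491, chromosome 15, 66780819 to 66831829, minus strand), the SLAP adaptor, was the member with the highest log2 fold change, 0.097. It had 237 TPM (232 to 243) in the library labelled KO, against 222 TPM (216 to 228) in the library labelled WT. Reads lay unevenly over its annotated exons in both libraries. Exon 8, a coding exon of 148 bases, had 1070 TPM-equivalents in the library labelled KO and 996 in the library labelled WT. The terminal exon of 1937 bases had 52.3 and 43.0 in the same order. Relative to the inner exons, the terminal exon had a depth of 0.0817 in the library labelled KO and 0.0701 in the library labelled WT, the lowest of the 9 genes in each. Since this exon makes up most of the annotated length, the inner exons, at 640 TPM-equivalents in the library labelled KO and 614 in the library labelled WT, lay well above the gene's TPM, and above the inner exons of Ptpn6 at 529 and 507.

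Both Sla transcripts of the deposited annotation start at exon 1, which was almost bare, with 1.95 read pairs in the library labelled KO and 2.04 in the library labelled WT. Exon 2 had 399 and 322 read pairs and exon 3 had 846 and 671. NM_001029841, whose reading frame begins with 11 coding bases in exon 1, was nevertheless assigned 67.1% of Sla TPM in the library labelled KO and 61.1% in the library labelled WT. GENCODE M21 lists further Sla transcripts, of which Sla-201 starts within exon 2. Sla-203 and Sla-205 start between exons 2 and 3 and run into exon 3. The deposited shares for Sla are therefore given as assigned and not as use of the annotated start.

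**Figure D5:**
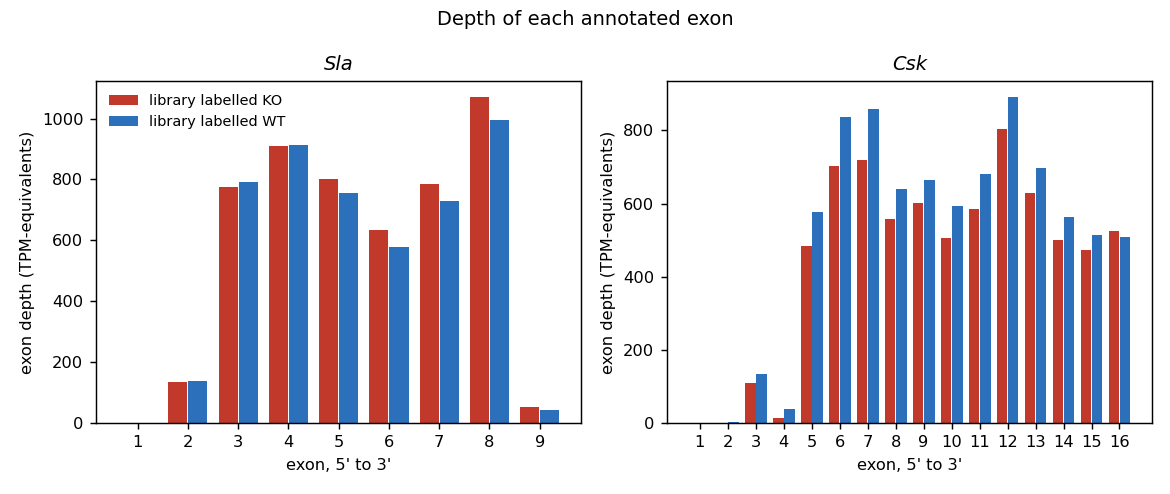
Depth of each annotated exon in TPM-equivalents, numbered 5' to 3', of Sla (left) and Csk (right), with bars for the library labelled KO (red) and the library labelled WT (blue), 1 library each and no replicate error. Exons 1 of Sla and exons 1 and 2 of Csk are almost bare in both libraries, and the terminal exon 9 of Sla is far below exons 3 to 8.

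Sla2 (Entrez 77799, chromosome 2, 156872922 to 156887078, minus strand), which encodes SLAP-2, had 125 TPM (121 to 130) in the library labelled KO, against 141 TPM (136 to 147) in the library labelled WT (log2 fold change -0.17). Its terminal exon shares 520 bases with Rab5if on the opposite strand, 20.7% of its exonic length, and Rab5if was higher in the library labelled KO, at 139 TPM, against 117 TPM in the library labelled WT. Whether counting used strand is unknown here, so the level of Sla2 is uncertain there. In the other 7 exons, which share no base with Rab5if, Sla2 had a ratio of 0.865 (0.806 to 0.929). By gene TPM, the summed level of Sla and Sla2 was 363 TPM in both libraries. On that scale Sla was 1.89 times as abundant as Sla2 in the library labelled KO and 1.57 times in the library labelled WT. The thinly covered terminal exon of Sla lowers its gene TPM. The inner exons of Sla had 640 and 614 TPM-equivalents in the same order, against 174 and 200 for Sla2. Both the sum and the ratio therefore depend on the annotated length of Sla.

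A further list of 61 other negative regulators of TCR signalling, such as CD5, diacylglycerol kinases and inhibitory receptors, had 59 genes with at least 1 TPM. Of these, 42 had a log2 fold change below 0, beside 61.5% of all genes, and the median was -0.085. None was past 1 in size, beside 2.03% of all genes. Lower by 0.5 or more were 6, beside 6.42% of all genes, and 1 was higher, beside 3.37%. Outside the terminal exon 7 of 55 were lower by 0.5, beside 10.7%. The lowest of at least 5 TPM were Ctla4, the inhibitory receptor that competes with CD28, at 6.65 TPM in the library labelled KO and 14.05 TPM in the library labelled WT, and Rasa3, a GTPase-activating protein for Ras-family GTPases, at 31.8 TPM in the library labelled KO and 55.9 TPM in the library labelled WT. Socs3, an inhibitor of cytokine signalling, had 5.43 TPM in the library labelled KO and 8.36 TPM in the library labelled WT. The others past 0.5, named after their values were seen, were Ptpn3, Ceacam1 and Nf1. At the upper end stood Cd2bp2, which encodes a protein that binds the CD2 tail. It was placed on the list by name, and a role as a brake was not tested here. Cd2bp2 had 97.5 TPM in the library labelled KO and 51.4 TPM in the library labelled WT, but a log2 fold change of -0.18 outside its terminal exon. Spry2, an inhibitor of receptor signalling to ERK, had 6.28 TPM in the library labelled KO and 4.66 TPM in the library labelled WT, and the receptor Cd96 had 212 and 172 TPM in the same order.

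A list of 40 kinases, adaptors and substrates of TCR signalling was read in the same way. Of these genes 29 had a log2 fold change below 0, beside 61.5% of all genes, and the median was -0.13. None was past 1 in size, beside 2.03% of all genes. Only 1 of the 40 was lower by 0.5 over the whole gene, beside 6.42% of all genes. It was Plcg1, the phospholipase that makes the calcium and protein kinase C messengers. Plcg1 had 146 TPM in the library labelled KO and 207 TPM in the library labelled WT. Outside the terminal exon 7 of the 40 were lower by 0.5, beside 10.7% of all genes with such a value. Itpr1, a calcium release channel, had 21.01 TPM in the library labelled KO and 30.0 TPM in the library labelled WT, and Nck1, an adaptor, had 46.4 and 60.4 TPM in the same order. The highest were Ptprc, the CD45 phosphatase (1234 and 939 TPM in the same order, but a log2 fold change of -0.19 outside its terminal exon), the adaptor Skap1 (447 and 380 TPM) and the adhesion receptor Cd2 (1598 and 1373 TPM). Lck, the kinase that Csk inhibits, had 2040 TPM in the library labelled KO and 1993 TPM in the library labelled WT, so that Csk was at 0.224 and 0.249 times the level of Lck.

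Markers of other cells were low beside Cd4, Cd8a and Cd69, but not all were low beside the 9 genes. Among the B cell, myeloid, NK and stromal markers, Lyz2, Cd79b, Tyrobp and Pecam1 were above Cblb in both libraries. Cblb had 19.5 TPM in the library labelled KO and 25.8 TPM in the library labelled WT. The B cell marker Cd79b had 35.7 and 31.7 TPM in the same order, and the innate marker Tyrobp had 30.0 and 26.2 TPM. Pecam1 was also above Pag1 and Ubash3a in both. B cell markers, 6 genes, summed to 65.6 TPM in the library labelled KO and 56.6 TPM in the library labelled WT, and 9 myeloid markers summed to 81.3 and 94.5 TPM in the same order, with Lyz2 the highest at 43.6 and 59.5 TPM. Although the myeloid sum was lower in the library labelled KO, 6 of its 9 genes were higher there. The 4 NK and innate markers summed to 56.7 and 44.8 TPM. The erythroid marker Hba-a1, and Krt5, Krt8 and Pdgfra of the 6 stromal markers, were at 0 in both libraries, while Pecam1 of the stromal list had 104 and 120 TPM. The 3 double-negative markers summed to 20.1 and 23.9 TPM. Of the 5 late single-positive markers 4 were lower in the library labelled KO, among them Klf2 with 19.3 and 41.5 TPM, and they summed to 309 and 363 TPM. The part of such cells in the difference of Cbl was not tested.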

How the data were processed

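RNA-seq of 2 libraries of CD69+ DP thymocytes, 1 labelled KO and 1 labelled WT, was analysed from gene and transcript tables. The submitters' processing notes name HISAT2, with no version, and the build mm10 (GRCm38). The authors, per the file headers, ran StringTie 1.3.3b on annotated RefSeq transcripts. The deposited values are TPM, FPKM and coverage (mean read depth per base, not scaled to library size). Covered bases of sparsely covered transcripts lay near multiples of 202 bases, 2 mates of 101, so read pairs were estimated as covered bases divided by 202. Levels have exact Poisson and ratios exact binomial (Clopper-Pearson) 95% intervals, which cover counting error only, since PCR copies are not independent molecules. Genes reaching 1 TPM in either library entered the log2((TPM + 1) / (TPM + 1)) comparison, with no test. Exons that overlap were merged and numbered 5' to 3'. The terminal exon is that of the most abundant transcript. Coding parts and Ptpn6 starts are from GENCODE M21, whose introns matched those of all 14 member transcripts. Named list genes are the 3 highest and 3 lowest of each list with at least 5 TPM. The 9 genes, the lists and the rules were chosen with earlier results of these data known. Python 3.11.15, numpy 2.4.6, scipy 1.17.1 and matplotlib 3.10.9 were used.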

Additional observations from a re-analysis of the deposited data

How the results depend on the processing

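None of the 9 genes reached a log2 fold change of 1 in size under any alternative tried: a pseudocount of 0.1 TPM, filters of 5 TPM or none, FPKM, centring on the median of all genes, leaving out the terminal exon, or, added after seeing the data, the 5' or the 3' part alone. At 0.5 in place of 1, also added later, 1 gene (Cbl) was past the rule, and 3 were without the terminal exon. Cbl ranged from -0.75 with FPKM to -0.91 without the terminal exon. Of 72 gene values under an alternative 68 kept their sign. This count includes values that could not change sign, since the filters altered no member value and a pseudocount cannot reverse a direction. Ptpn22 was above 0 with FPKM (0.038), centring (0.0097) and the 3' part (0.0083), and Ptpn6 below 0 in the 5' part (-0.058). Members below 0 numbered 6 with FPKM, where the median of all genes was 0.019. They numbered 6 with centring, which sets the median of all genes to 0. The share of all genes below 0 was not counted in these settings. The median of the 9 was -0.066 with FPKM, -0.096 with centring, -0.25 in the 5' part and -0.069 in the 3' part. FPKM moved the median of all genes by 0.089. The median exon ratio of the members was -0.23 and that of the terminal exons alone -0.062 (log2). At 10 percentage points 1 gene differed in transcript share. The list of other negative regulators had medians of 0.013 with FPKM, -0.18 without the terminal exon, -0.21 in the 5' part and 0.0031 in the 3' part. For the kinases and adaptors these were -0.027, -0.21, -0.25 and -0.020, and -0.056 with centring. The causes were not tested. Depth limits the exon ratios of Cblb, with 4.74 to 86.3 read pairs in each exon but the last in the library labelled KO. No paired analysis was possible because each group has 1 library, which also leaves no replicate to leave out.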
